A study of Mus musculus with 42 samples.

Results

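Line K3 is a mouse embryonic stem cell line of C57Bl/6 background that is labelled AMPK DKO, without both catalytic subunits of the AMP-activated protein kinase. The comparison set its embryoid bodies in 2.5 mM glucose (LG) against those in 25 mM glucose (HG), on days 8 and 12 of differentiation. K3 was taken because the headings of its libraries match their line markers and their Txnip level, so these genes are described below without a test. The comparison took 4 of the 42 libraries of the series, 1 for each glucose level and day: K3 LG on day 8, K3 LG on day 12, K3 HG on day 8 and K3 HG on day 12. The stem cells had been grown with leukaemia inhibitory factor on irradiated DR4 feeders, passaged free of feeders, and plated as single cells in low attachment dishes without the factor, where they aggregate and differentiate into a mixture of cell types. Differences found in K3 were looked up in another DKO line, K1, through its LG libraries of days 8 and 12. They were also set beside the same LG and HG libraries of the WT line W1. W1 was likewise taken because its headings of days 8 and 12 matched its line markers and Txnip in an earlier look at these data. Each line is 1 isolate, so a property of a line cannot be told apart from a property of its genotype, and nothing in the labels says that a library was repeated. The 2 days of one culture condition stood in for replicates, and p-values measure the spread of the glucose difference between days.

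AMPK is a kinase that is activated when cellular energy is low, and the series title names it together with Tfeb, which switches on genes of lysosomes. Glucose also reaches transcription through the Mondo factors. Glucose phosphates activate MondoA (Mlxip) and ChREBP (Mlxipl), which bind paired E boxes with their partner Mlx and induce the arrestin genes Txnip and Arrdc4. Txnip protein limits glucose uptake, so that its transcript is a common readout of glucose supply. In embryoid bodies, visceral endoderm forms an outer layer that secretes plasma proteins, and part of the mesoderm becomes beating heart muscle.

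The promoters of 4 genes with large differences are shown because they hold motifs known from these pathways. They are the RefSeq sequences of 250 bases before the transcription start, in build GRCm38.p6 and in the direction of transcription, and capitals mark the match. The Txnip stretch lies at chr3:96557707-96557956 (plus strand) and holds 2 copies of CACGNG with 5 bases between them, a paired E box of the kind that Mondo factors bind. The Arrdc4 stretch at chr7:68749239-68749488 (minus strand) holds a CACGTG E box. The Myl7 stretch at chr11:5898783-5899032 and the Actc1 stretch at chr2:114052876-114053125, both on the minus strand, hold a CArG box, which is CC, 6 bases of A or T and GG, the form that serum response factor binds in muscle genes.
Txnip: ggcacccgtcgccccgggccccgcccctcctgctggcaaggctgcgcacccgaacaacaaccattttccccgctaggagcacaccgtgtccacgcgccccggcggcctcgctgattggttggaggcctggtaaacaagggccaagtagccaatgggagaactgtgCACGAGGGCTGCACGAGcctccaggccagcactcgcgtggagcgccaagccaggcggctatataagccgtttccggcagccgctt
Arrdc4: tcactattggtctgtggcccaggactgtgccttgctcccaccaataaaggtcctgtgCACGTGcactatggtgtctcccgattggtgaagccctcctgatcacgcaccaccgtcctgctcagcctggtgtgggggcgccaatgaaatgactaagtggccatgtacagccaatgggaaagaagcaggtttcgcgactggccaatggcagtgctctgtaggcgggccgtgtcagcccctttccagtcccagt
Myl7: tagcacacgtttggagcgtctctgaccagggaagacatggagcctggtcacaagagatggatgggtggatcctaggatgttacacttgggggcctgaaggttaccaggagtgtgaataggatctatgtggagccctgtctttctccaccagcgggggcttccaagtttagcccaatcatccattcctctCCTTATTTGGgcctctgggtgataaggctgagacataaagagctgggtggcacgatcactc
Actc1: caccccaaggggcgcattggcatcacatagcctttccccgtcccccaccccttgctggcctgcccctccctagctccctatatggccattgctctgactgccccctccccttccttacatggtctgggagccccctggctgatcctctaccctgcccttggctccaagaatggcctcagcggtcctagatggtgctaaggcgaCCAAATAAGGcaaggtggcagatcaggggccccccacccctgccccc
Both strands of all 32851 promoters of the reference table, 300 bases each with 50 after the start, were searched for the same motifs. The paired E box was in 0.0487% of them, CACGTG in 7.15% and the CArG box in 1.63%. Of 24 cardiac and smooth muscle genes with a promoter in the table, 4 held a CArG box, Acta1, Actc1, Myl3 and Myl7. CACGTG was in 2 of these 24 genes, Actn2 and Gata5. Among the 9 genes of the arrestin and Mondo list, Txnip held the paired E box, and Arrdc4, Mlx and Mlxipl held CACGTG. Arrdc4 also held a CArG box, which is not in capitals above. Over the promoters of genes lower in K3 LG, the paired E box was in 0.524%, CACGTG in 7.85% and the CArG box in 4.19%. The motifs were picked with the results known, and a match describes the letters only.

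The labels were checked first. Prkaa2, which encodes the AMPK catalytic subunit alpha 2, was at 0.959 and 0.617 RPKM in K3 LG on days 8 and 12 and at 0.901 and 0.793 RPKM in K3 HG, against 18.4 and 22.3 RPKM in W1 LG and 8.10 and 10.5 RPKM in W1 HG. Prkaa1, which encodes subunit alpha 1, stayed detectable, at 5.16 and 6.63 RPKM in K3 LG and 4.61 and 4.69 RPKM in K3 HG, against 10.01 and 10.63 RPKM in W1 LG and 10.8 and 11.2 RPKM in W1 HG. The labels do not give the deleted exons, so reads outside them would still be counted. Neither gene passed the threshold between glucose levels in K3 (adjusted p of 0.849 and 0.247, limma). The line marker Ddx3y was at 15.7 and 17.5 RPKM in K3 LG and 16.5 and 17.8 RPKM in K3 HG, above 1.02 and 1.06 RPKM in K1 LG and the range of 3.32 to 4.67 RPKM in W1. Line markers were part of the choice of K3 and of W1, and their levels are a description. Depths estimated from the steps of low values were 10940000 and 10500000 reads in K3 LG and 12610000 and 11390000 reads in K3 HG, so that 1 RPKM over 1 kb stood for 10.5 to 12.61 reads.

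Low glucose went with more falls than rises in K3. Of 13694 genes tested, 468 differed (3.42%), of which 403 were lower in LG (2.94%) and 65 higher (0.475%), at an adjusted p below 0.05, from limma on log2(RPKM + 1) with the day as a block. Among the largest falls were heart muscle contractile genes and apolipoproteins, and among the largest rises Hoxb9 and Lgals1. Txnip, which helped to choose K3, is included in the count of falls. The median over all genes tested was -0.05 on the log2 scale. Without any test, 267 genes (1.95%) were at least 2-fold lower in LG and 38 (0.277%) at least 2-fold higher on both days, and 233 of the genes past the threshold were among them. The calls lean on the day block and on a spread shared with W1: without the block 22 genes were lower and 0 higher, and K3 alone, with 1 residual degree of freedom, left Myl7 only. Leaving out any 1 of the 8 libraries, which breaks a pair and was fitted without the block, left 0 calls. Scaling by median of ratios gave 301 genes lower and 138 higher, so that 31.4% of calls were rises, against 13.9% with the RPKM as deposited.

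**Figure D1:**
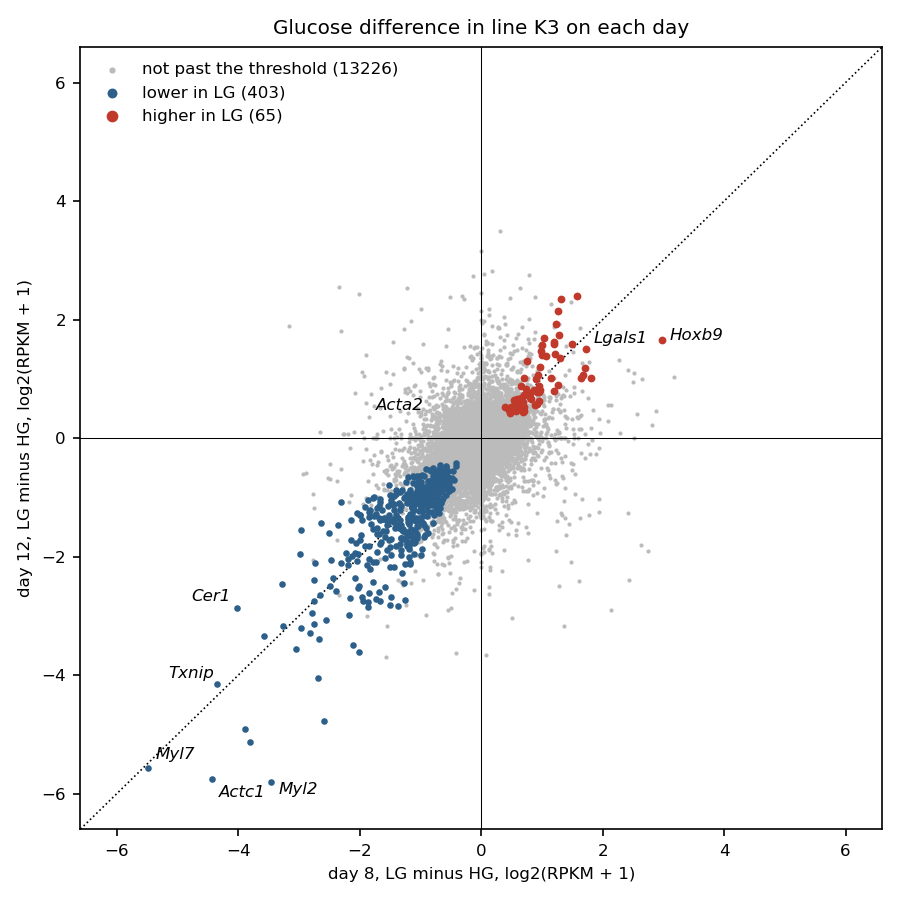
Difference between LG and HG in line K3 on day 8 (horizontal axis) and day 12 (vertical axis), both as log2(RPKM + 1), for 13694 genes. Blue points are the 403 genes lower in LG, red points the 65 genes higher in LG and grey points the others, with equal differences on the dotted line. Myl7 and Txnip lie close to the line, while Acta2 lies below 0 on day 8 and above it on day 12.

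Txnip (chromosome 3, 96557957 to 96561857, mm10) was at 0.262 and 1.20 RPKM in K3 LG on days 8 and 12, against 24.7 and 38.1 RPKM in K3 HG. Behind these values were 8 and 35 reads in LG, against 869 and 1210 in HG, and the groups were far apart on both days. The difference was -4.25 ± 0.13 on the log2 scale, given without a test because the Txnip level was used to choose the line. Here and below, ± is the SE of the joint fit, whose spread is shared with W1, and not the spread of the 2 K3 days alone. In K1 LG it was at 0.354 and 0.961 RPKM, in the range of K3 LG. W1 had 0.335 and 0.538 RPKM in LG, against 117 and 109 RPKM in HG, a difference of -6.31. LG levels in the 3 lines thus all lay between 0.262 and 1.20 RPKM, and the HG level in K3 was below that in W1. Txnip was also used to choose W1, so its W1 levels are a description as well. The K3 difference was smaller than the W1 difference by 2.06, also without a test. Gm15441, an antisense transcript that overlaps Txnip, differed by -3.22 in K3, and without strand its reads cannot be told apart from those of Txnip.

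Arrdc4, the other arrestin gene under Mondo control, was at 1.09 and 0.961 RPKM in K3 LG, against 6.33 and 4.35 RPKM in K3 HG. Both LG values were below both HG values, with a difference of -1.63 ± 0.16 (SE of the joint fit, adjusted p = 0.0204, limma). W1 had 2.26 and 2.47 RPKM in LG, against 33.3 and 28.7 RPKM in HG. Besides Txnip, Arrdc4 was the only fall among the 8 tested genes of the arrestin and Mondo list, and the list median was -0.12.

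Genes of glucose use held few calls. Of 21 glycolysis genes, 3 fell and 1 rose, against 2.94% and 0.475% of all genes, with a median of -0.20. The lactate and pyruvate transporter Slc16a1 was at 76.4 and 37.5 RPKM in K3 LG, against 184 and 166 RPKM in K3 HG (-1.69 ± 0.26, adjusted p = 0.0404, limma). The aldolase Aldoc fell by 1.15 and phosphoglycerate kinase Pgk1 by 0.71. Pfkfb3, which makes the activator of phosphofructokinase, rose by 0.57. Slc2a1 and Slc2a3, the main glucose transporters of embryonic cells, were below HG on both days without passing the threshold (-0.73 and -0.91, adjusted p of 0.0915 and 0.117, limma), and 0 of 6 transporters did. G6pc3 and Pygl, enzymes that release glucose or its phosphate from stores or intermediates, fell by 1.23 and 1.36. They were 2 of 9 tested genes of gluconeogenesis and glycogen. The pyruvate dehydrogenase kinase Pdk2 fell (-1.14), the only call among 22 tested genes of pyruvate use and the citric acid cycle. The lipid droplet coat gene Plin2 fell (-1.24), the only call among 13 tested genes of the fatty acid oxidation list. Adm and Vegfa, which encode secreted vascular factors, fell too (-1.29 and -0.69). They count among the 22 tested hypoxia-inducible genes, of which 2 fell. Beside each of these counts stands the 2.94% of all genes that fell. With 1 K3 library left out and no day block, a fit that sets unequal days against each other, Pdk2 ran from -1.81 without K3 LG of day 12 to -0.47 without K3 LG of day 8, Vegfa from -1.08 to -0.29 with the same libraries left out, and Pfkfb3 from 0.33 without K3 HG of day 8 to 0.81 without K3 HG of day 12.

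The deepest falls were in heart muscle. Myl7, the atrial myosin light chain (chromosome 11, 5896637 to 5898782, mm10), was at 1.57 and 4.26 RPKM in K3 LG, against 114 and 248 RPKM in K3 HG. Behind these were 10 and 26 reads in LG, against 835 and 1644 reads in HG. The difference was -5.52 ± 0.32 (adjusted p = 0.00572, limma). K1 LG had 1.57 and 5.63 RPKM, next to the values of K3 LG.

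Actc1, the cardiac alpha actin, was at 7.67 and 7.24 RPKM in K3 LG, against 187 and 443 RPKM in K3 HG (-5.09 ± 0.43, adjusted p = 0.0174, limma). The alpha myosin heavy chain Myh6 was at 0.151 and 1.25 RPKM in K3 LG, against 15.1 and 77.8 RPKM in K3 HG (-4.47 ± 0.32, adjusted p = 0.0102, limma). The HG level of all 3 genes was higher on day 12 than on day 8, whereas LG values stayed below 8 RPKM on both days. The ventricular light chain Myl2 fell by 4.63 and Myl3 by 3.68, each with a larger difference on day 12 (-5.81 and -4.77) than on day 8 (-3.46 and -2.59). Myh7, the beta myosin heavy chain, fell by 3.31, and the overlapping antisense transcript Mhrt, which cannot be told apart from it here, by 3.09.

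The cardiac and smooth muscle list held falls in most of its members. Of 25 tested members 15 fell and 0 rose, against 2.94% and 0.475% of all genes, with a median of -2.06, and 23 were below HG on both days. The share of all genes on one side of HG on both days was not counted. Such counts of members, here and for the lists below, therefore have no baseline and are a description. Besides contractile genes the falls took in Nkx2-5, a transcription factor of heart progenitors, at 0.781 and 1.00 RPKM in K3 LG against 6.05 and 5.26 RPKM in K3 HG (-1.81 ± 0.27, adjusted p = 0.0382, limma), and the intermediate filament gene Des (-2.06). The troponin Tnnt2 fell by 2.87 but kept 31.7 RPKM in K3 LG on day 12, and without that library and without the day block its difference was -3.93, against -1.82 without K3 LG of day 8. Smooth muscle members were not past the threshold: Acta2 was at 32.3 and 230 RPKM in K3 LG against 119 and 180 RPKM in K3 HG, in opposite directions on the 2 days, and Tagln at 42.2 and 34.8 RPKM against 59.4 and 35.1 RPKM. For each of the 15 fallen members K1 LG was also below K3 HG on both days. The same list had 16 falls and a median of -1.78 in W1, where 8.02% of all genes fell. In pooled embryoid bodies, fewer cells of a type and less RNA per cell cannot be told apart, here and for every group below.

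**Figure D2:**
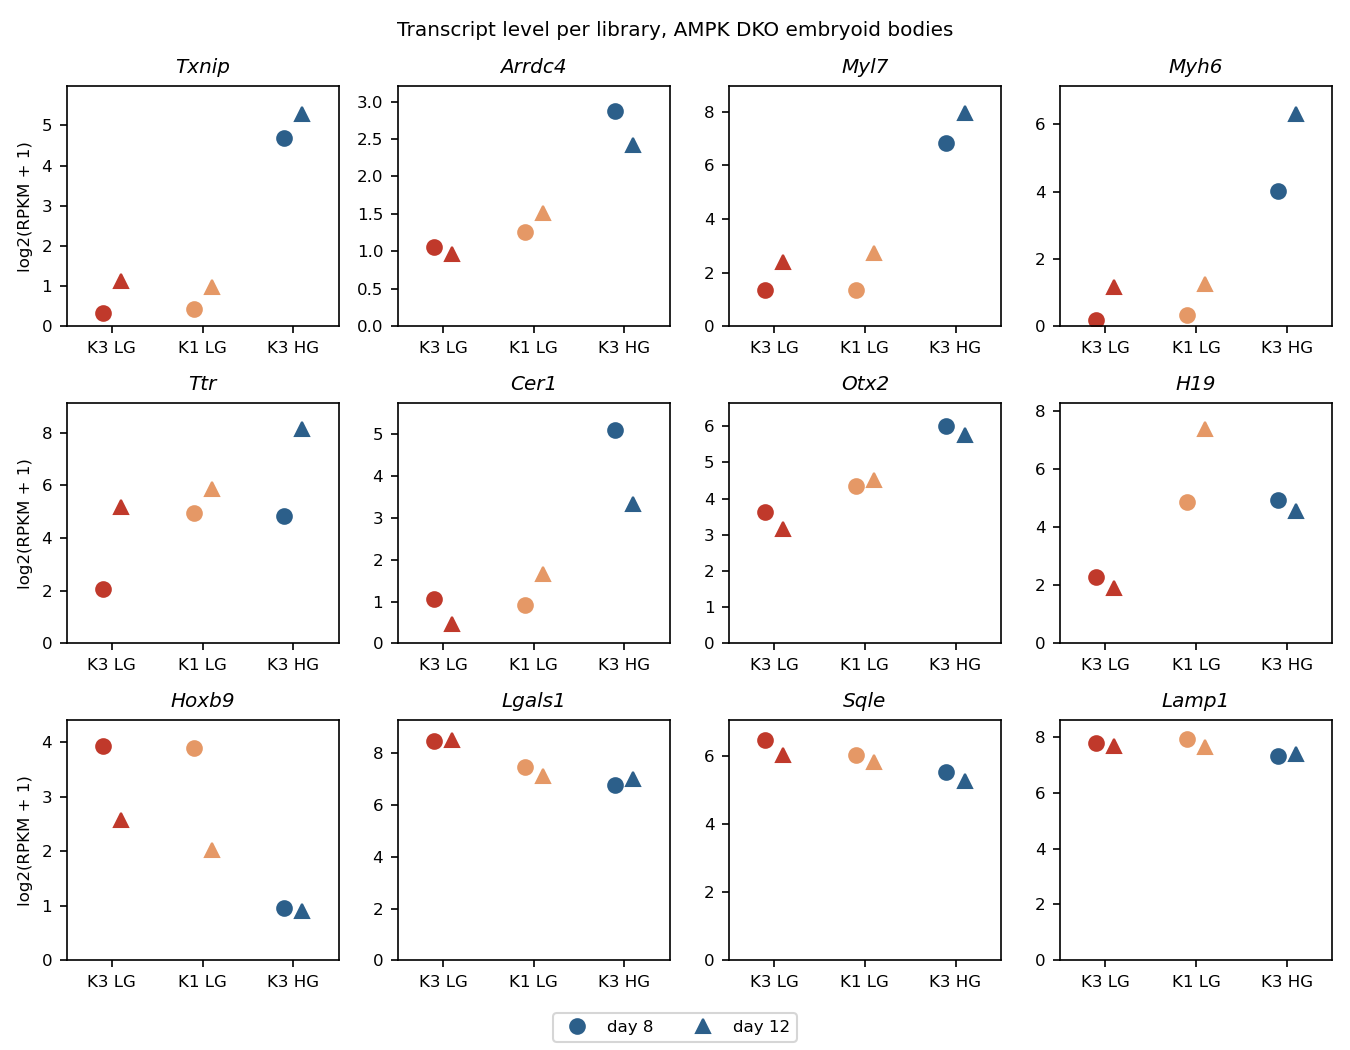
Level of 12 genes as log2(RPKM + 1) in each library of the DKO lines, with K3 LG on the left, K1 LG in the middle and K3 HG on the right, day 8 as circles and day 12 as triangles. Both LG lines sit low for Txnip, Myl7 and Myh6, and both sit high for Hoxb9, while K1 LG sits with or above K3 HG for H19.

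Visceral endoderm genes were lower in LG as well, at levels that depended on the day. Ttr, which carries thyroid hormone and retinol-binding protein, was at 3.16 and 35.6 RPKM in K3 LG on days 8 and 12, against 27.7 and 282 RPKM in K3 HG (-2.87 ± 0.12, adjusted p = 0.00407, limma). Each glucose level thus had its higher value on day 12, and the glucose difference was of like size on both days (-2.79 and -2.95). The fetal albumin homologue Afp was at 0.221 and 25.7 RPKM in K3 LG, against 3.45 and 193 RPKM in K3 HG (-2.36 ± 0.33, adjusted p = 0.0345, limma). Its K3 LG value of day 12 was above its K3 HG value of day 8, so that the order of the groups holds within a day only, and without K3 HG of day 12 and without the day block the difference turned to 0.36.

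Of 27 tested visceral endoderm genes 9 fell and 0 rose, against 2.94% and 0.475% of all genes. Their median was -1.34, with -0.43 on day 8 and -2.01 on day 12, and 25 of the 27 were below HG on both days. The largest falls were those of the apolipoproteins Apob (-3.47), Apom (-3.36) and Apoa1 (-3.05) and of Ttr. Below Ttr came the trypsin inhibitor Spink3 (-2.58), the retinol carrier Rbp4 (-2.43), Afp and the endocytic adaptor Dab2 (-2.22). Several values moved by over 1.5 times when 1 K3 library was left out without the day block. Apob ran from -5.05 without K3 LG of day 12 to -1.88 without K3 LG of day 8. Without K3 HG of day 8 and without K3 HG of day 12, Apom was at -5.004 and -1.72, Apoa1 at -5.19 and -0.92, Ttr at -4.52 and -1.22, and Dab2 at -3.58 and -0.87. Summed over the list, K3 LG had 417 and 507 RPKM, against 844 and 2732 RPKM in K3 HG. K1 took the LG side for 4 of the 9 fallen members on both days, against 36% of all genes tested. Apom was at 0.258 and 3.77 RPKM in K3 LG and at 34.8 and 35.3 RPKM in K1 LG, against 7.07 and 77.6 RPKM in K3 HG, so that K1 LG lay above K3 HG on day 8. The list had 5 falls and a median of -0.67 in W1, where 8.02% of all genes fell.

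Transcription factors of endoderm fell with these secreted products. Of 18 endoderm genes 6 fell and 0 rose, against 2.94% and 0.475% of all genes, with a median of -1.01, and for all 6 K1 LG was below K3 HG on both days. Hnf4a, a nuclear receptor of visceral endoderm and liver, was at 0.442 and 1.62 RPKM in K3 LG, against 4.16 and 11.2 RPKM in K3 HG (-2.03 ± 0.15, adjusted p = 0.0102, limma). The forkhead factors Foxa2 and Foxa3 fell by 1.76 and 1.62. Foxa2 was at 3.85 and 4.43 RPKM in K3 LG, against 20.4 and 13.1 RPKM in K3 HG, with both LG values under both HG values. The keratin Krt8 fell by 1.42 (-1.94 without K3 LG of day 8 and -0.90 without K3 LG of day 12, with no day block), and Pyy, which encodes a peptide hormone of the gut, by 4.40, with 0.370 and 0 RPKM in K3 LG against 19.3 and 29.1 RPKM in K3 HG. Sox17, a marker of definitive and extraembryonic endoderm, was at 5.65 and 2.93 RPKM in K3 LG, against 15.5 and 11.4 RPKM in K3 HG, with an adjusted p of 0.0591 (limma) that missed the threshold.

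Cer1, Otx2 and Lhx1, members of the streak and epiblast lists, fell, and 4 Hox genes rose. Cer1, a secreted inhibitor of Nodal, BMP and Wnt signals made by anterior endoderm, was at 1.10 and 0.384 RPKM in K3 LG, against 33.1 and 9.09 RPKM in K3 HG (-3.44 ± 0.33, adjusted p = 0.0194, limma). K1 LG had 0.875 and 2.15 RPKM. Otx2, a homeobox factor of the epiblast and forebrain, was at 11.3 and 7.96 RPKM in K3 LG, against 63.4 and 52.7 RPKM in K3 HG (-2.49 ± 0.11, adjusted p = 0.00463, limma), and K1 LG lay between them at 19.2 and 21.7 RPKM. The LIM factor Lhx1 fell by 1.21 (-2.18 without K3 LG of day 8 and -0.24 without K3 LG of day 12, with no day block). Of 14 primitive streak genes 3 fell, Cer1, Foxa2 and Lhx1, and 0 rose, against 2.94% and 0.475% of all genes.

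Hox genes encode homeobox factors that set position along the body axis. Hoxb9 was at 14.3 and 4.95 RPKM in K3 LG, against 0.942 and 0.880 RPKM in K3 HG (2.32 ± 0.37, adjusted p = 0.0432, limma). The LG values rested on 421 and 140 reads and the HG values on 32 and 27 reads. K1 LG had 13.96 and 3.08 RPKM, the same order over days as K3 LG. Hoxa9, Hoxc9 and Hoxd4 rose by 1.55, 1.44 and 1.37. Hoxa9 was at 2.13 and 3.31 RPKM in K3 LG, against 0.104 and 0.432 RPKM in K3 HG, where 4 and 15 reads were counted. Of 17 tested Hox genes 4 rose and 0 fell, against 0.475% of all genes that rose. Their median was 1.22, with 16 of the 17 above HG on both days. In W1 the median was 0.03 with 0 rises, where 5.27% of all genes rose. The mesoderm factor T (Brachyury) was at 66.3 and 17.8 RPKM in K3 LG, against 22.8 and 5.91 RPKM in K3 HG, above HG on each day but with an adjusted p of 0.129 (limma).

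Of 15 formative and primed epiblast genes 4 fell, Otx2, Cldn6, Fgf5 and Zic2, and 0 rose, against 2.94% and 0.475% of all genes. Fgf5, a growth factor of the epiblast, was at 12.7 and 6.79 RPKM in K3 LG, against 38.4 and 18.3 RPKM in K3 HG (-1.42 ± 0.17, adjusted p = 0.0266, limma), with -1.93 without K3 HG of day 12 and -0.90 without K3 HG of day 8 when the day block was dropped. Cldn6, a tight junction claudin of early epithelia, was at 56.2 and 73.2 RPKM in K3 LG, against 173 and 190 RPKM in K3 HG (-1.48 ± 0.10, adjusted p = 0.00752, limma). Of 24 naive pluripotency genes 0 passed in either direction. Pou5f1 was at 114 and 98.7 RPKM in K3 LG, against 131 and 67.2 RPKM in K3 HG, and Nanog at 43.8 and 46.8 RPKM, against 57.6 and 35.4 RPKM. For both genes LG was below HG on day 8 and above it on day 12.

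**Figure D3:**
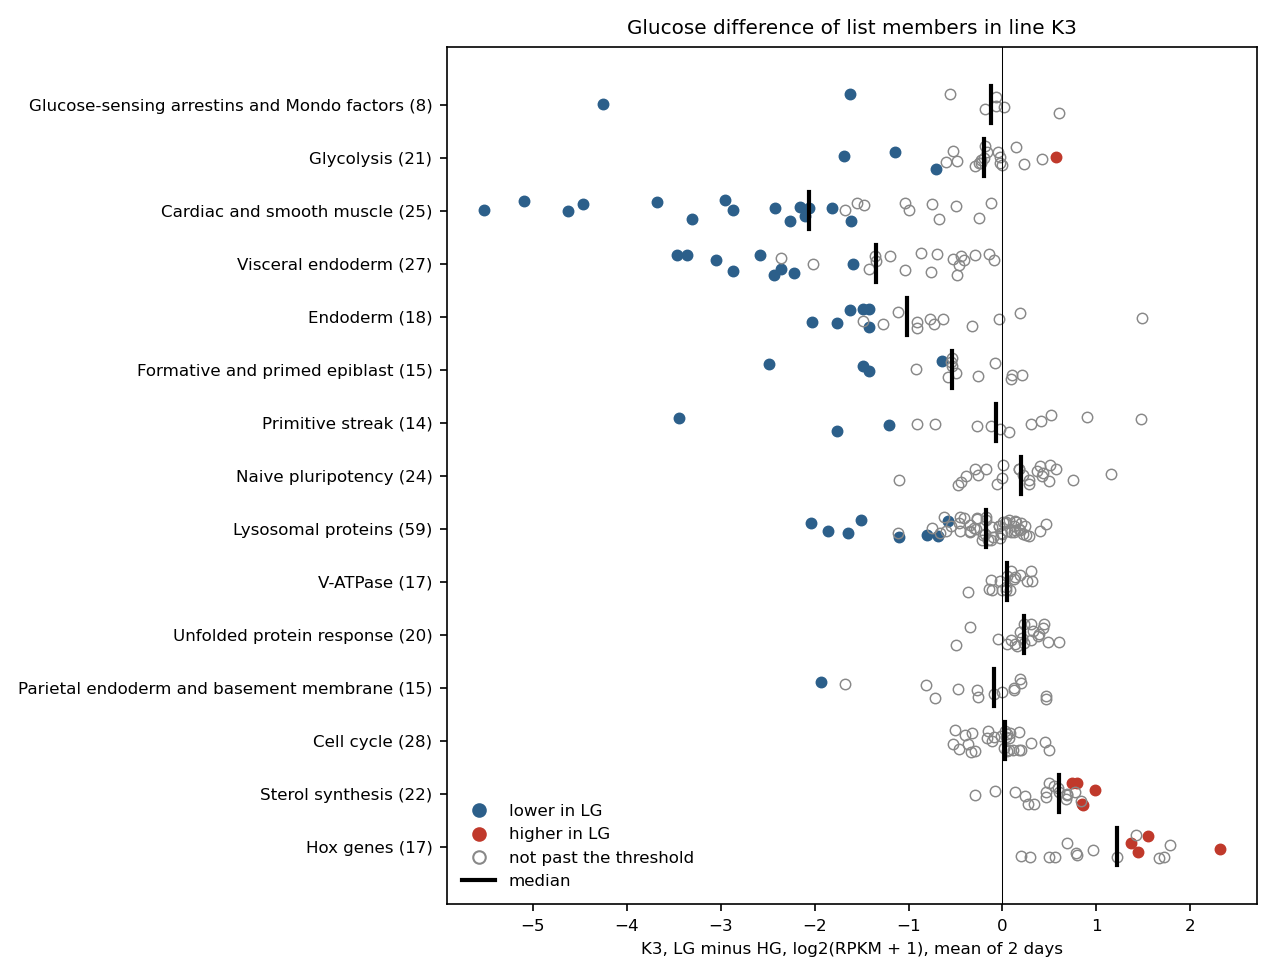
Difference between LG and HG in K3 as the mean of 2 days of log2(RPKM + 1) for each tested member of 15 gene lists, with the number of members in brackets. Filled blue points fell, filled red points rose, open points were not past the threshold and black bars are list medians, from -2.06 for cardiac and smooth muscle to 1.22 for Hox genes.

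Genes of sterol synthesis were among the smaller rises. Squalene epoxidase Sqle was at 87.2 and 64.3 RPKM in K3 LG, against 44.7 and 37.2 RPKM in K3 HG (0.86 ± 0.10, adjusted p = 0.0252, limma). The sterol demethylase Cyp51 rose by 0.99 and Lss, which closes the sterol rings, by 0.74. Of 22 tested genes of the sterol list 5 rose and 0 fell, against 0.475% and 2.94% of all genes, 20 were above HG on both days, and the median was 0.60. K1 LG was above K3 HG on both days for all 5, with Sqle at 63.6 and 55.3 RPKM. In W1 the median was -0.03 and 0 rose, against 5.27% of all genes there. Fatty acid synthase Fasn rose by 0.62 and the desaturase Fads2 by 0.59. Of 14 fatty acid synthesis genes these 2 rose and 0 fell, against 0.475% and 2.94% of all genes. Without K3 LG of day 8 and without K3 LG of day 12, with no day block, Lss was at 0.50 and 0.99 and Fasn at 0.36 and 0.87.

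Lgals1, which encodes galectin 1 and is abundant in mesenchyme, had the largest level among the genes named as rises. It was at 355 and 362 RPKM in K3 LG, against 107 and 127 RPKM in K3 HG (1.61 ± 0.20, adjusted p = 0.0279, limma). K1 LG had 174 and 140 RPKM, between the K3 groups. Aldh1a2, which makes retinoic acid in mesoderm, rose by 1.41, the procollagen enhancer Pcolce by 1.39 and the adhesion molecule Ncam1 by 1.37. Tmem119, Lsp1 and Pmp22 rose by 1.51, 1.58 and 1.33. Pmp22 was at 45.9 and 44.3 RPKM in K1 LG, against 32.5 and 50.8 RPKM in K3 HG, so K1 took the LG side on day 8 only. Without K3 LG of day 8 and without K3 LG of day 12, with no day block, Pcolce was at 2.51 and 0.28, Ncam1 at 2.11 and 0.62, Lsp1 at 2.19 and 0.98, and Aldh1a2 at 1.94 and 0.87. Of 20 mesoderm and mesenchyme genes 1 rose, Twist2 (1.09), and 0 fell, against 0.475% and 2.94% of all genes. Feeder and fibroblast markers summed to 882 and 1343 RPKM in K3 LG, against 561 and 901 RPKM in K3 HG. On day 8 Vim and Fn1 made up much of these sums, at 466 and 312 RPKM in K3 LG against 267 and 197 RPKM in K3 HG. Of 17 such markers 1 rose and 0 fell, against 0.475% and 2.94% of all genes. The rise was that of the collagen gene Col5a1 (0.91, or 0.48 without K3 HG of day 8 and 1.34 without K3 HG of day 12, with no day block). The list median was 0.37, with -0.12 on day 8 and 0.70 on day 12, and 7 of the 17 were above HG on both days. The part of feeder and fibroblast cells in the rises given here was not tested. The rows Snora2b, Mir704, Mir6925 and Snord69 were also among the largest rises, but these small RNAs lie in longer transcripts and their values are uncertain.

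H19, an imprinted noncoding RNA expressed in extraembryonic and mesodermal tissues, had the tightest difference of the transcripts described here. It was at 3.85 and 2.77 RPKM in K3 LG, against 29.5 and 22.7 RPKM in K3 HG (-2.65 ± 0.07, adjusted p = 0.00167, limma). The difference was -2.65 on each day. Igf2, its neighbour with the opposite imprint, was at 548 and 1924 RPKM in K3 LG, against 830 and 1460 RPKM in K3 HG, below HG on day 8 and above it on day 12. K1 did not take the LG side for H19, at 28.2 and 166 RPKM. The row of Mir675, which lies within H19, fell by 3.04 and is not independent of it. H19 was picked after its values were seen.

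The study's title concerns lysosomes. Of 59 genes of lysosomal proteins 8 fell and 0 rose in K3, against 2.94% and 0.475% of all genes, with a median of -0.17. The falls were Lipa, Gm2a, Ctsz, Ctsh, Npc1, Ctsc, Gaa and Manba. The acid lipase Lipa was at 1.27 and 5.19 RPKM in K3 LG, against 6.25 and 18.0 RPKM in K3 HG (-1.65 ± 0.10, adjusted p = 0.00607, limma). Ctsh, the protease cathepsin H, was at 7.89 and 21.7 RPKM in K3 LG, against 25.5 and 128 RPKM in K3 HG, with the higher value of each glucose level on day 12. With no day block, Lipa ran from -2.37 without K3 LG of day 12 to -0.92 without K3 LG of day 8, and Ctsh from -3.19 without K3 HG of day 8 to -0.90 without K3 HG of day 12. K1 LG was below K3 HG on both days for 3 of the 8, against 36% of all genes tested. Lamp1, the main lysosomal membrane glycoprotein, was at 220 and 204 RPKM in K3 LG, against 156 and 165 RPKM in K3 HG, above HG on both days with an adjusted p of 0.0767 (limma). The protease Ctsd was at 94.7 and 103 RPKM in K3 LG, against 102 and 131 RPKM in K3 HG (-0.22, adjusted p = 0.201, limma). Tfeb was at 2.18 and 2.10 RPKM in K3 LG, against 1.47 and 3.45 RPKM in K3 HG, and Tfe3, its relative, at 21.98 and 20.04 RPKM, against 25.08 and 21.56 RPKM, with 0 of 4 factors of the family past the threshold. Of 17 subunits of the proton pump that acidifies lysosomes (V-ATPase) 0 passed, and of 25 autophagy genes 2 fell, against 2.94% of all genes.

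Set beside K3, the WT line W1 had more calls in the same fit, with 722 genes higher (5.27%) and 1098 lower (8.02%) in LG. The W1 rises took in 22 lysosomal genes, 10 V-ATPase subunits, 10 of 20 genes of the unfolded protein response and 10 of 15 parietal endoderm genes. These lists held 0 rises in K3, where 0.475% of all genes rose, and 15 of the 20 genes of the unfolded protein response were above HG on both days there. Lamp1 was at 648 and 745 RPKM in W1 LG, against 358 and 418 RPKM in W1 HG, a difference of 0.84. The difference between the lines was nevertheless not established. In the direct test of the K3 difference against the W1 difference 0 genes passed (0%, 2719 at an unadjusted p below 0.05), with a smallest adjusted p of 0.0514 (limma). The count was 162 with genes filtered at 5 RPKM, 24 with a pseudocount of 0.1 and 25 with a pseudocount of 5. For Lamp1 K3 minus W1 was -0.45 (95% CI -0.76 to -0.14, adjusted p = 0.159, limma) and for Ctsd -0.91 (95% CI -1.22 to -0.59, adjusted p = 0.0644, limma).

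Several genes had differences of opposite sign in the 2 lines, with the same limit. Cer1 fell in K3 and was not past the threshold in W1 (adjusted p = 0.0559, limma), where it was at 6.11 and 1.14 RPKM in LG against 1.15 and 0.085 RPKM in HG. The difference between the lines was -4.80 (95% CI -5.98 to -3.61, adjusted p = 0.0514, limma). The 95% intervals, here and above, are for each gene alone and are not adjusted for the number of genes tested. Cer1, and Fgf5 and Pmp22 below, were among the genes at the smallest adjusted p of this contrast. Fgf5 was at 8.80 and 1.68 RPKM in W1 LG, against 2.64 and 0.443 RPKM in W1 HG, a rise there of 1.16 and a difference between the lines of -2.58 (95% CI -3.18 to -1.97, adjusted p = 0.0514, limma). Pmp22 was at 28.4 and 46.1 RPKM in W1 LG, against 78.2 and 123 RPKM in W1 HG, a difference between the lines of 2.75 (95% CI 2.20 to 3.30, adjusted p = 0.0514, limma). By contrast Myl4, the atrial light chain of the embryonic heart, fell by 2.95 in K3 and by 2.87 in W1, with an interval of -0.50 to 0.34 for the difference.

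**Figure D4:**
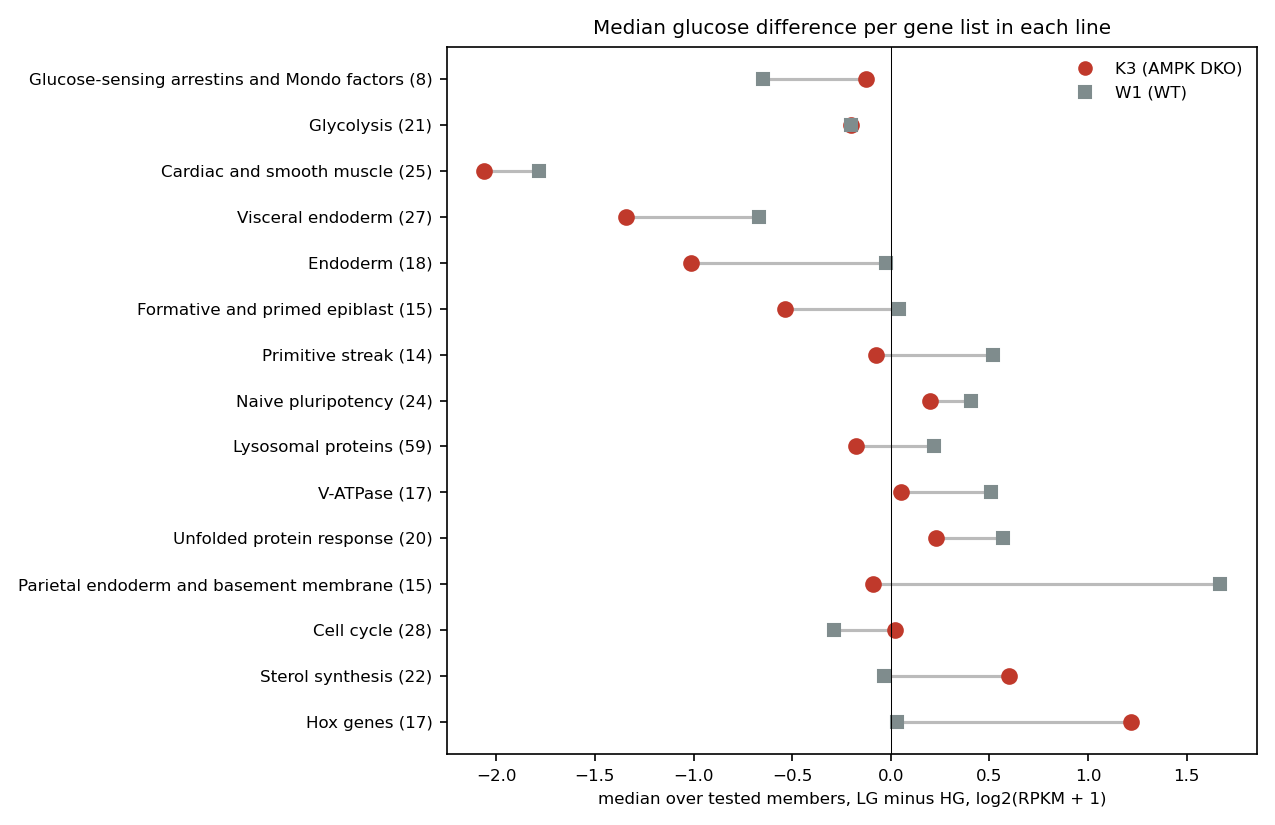
Median difference between LG and HG in log2(RPKM + 1) over the tested members of 15 gene lists, in K3 (red circles) and in W1 (grey squares), with 1 line per genotype. The cardiac list was low in both lines (-2.06 in K3 and -1.78 in W1), while the parietal endoderm list was near 0 in K3 and at 1.67 in W1.

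In the other DKO line, K1 LG lay on the LG side of K3 HG on both days for 304 of the 403 fallen genes (75.4%) and 56 of the 65 raised genes (86.2%). Over all genes tested, 36% were lower and 40.5% higher in K1 LG than in K3 HG on both days. These shares use the same K3 HG libraries that made the calls, and K1 and K3 also differ as lines, so that glucose and line cannot be told apart in them. The 15 cardiac genes, the 6 endoderm genes, the 5 sterol genes and the 4 Hox genes past the threshold were all on the LG side in K1. Among those not on the LG side on both days were H19, Pmp22 and 5 of the 9 visceral endoderm genes.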

How the data were processed

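Messenger RNA was sequenced from libraries that do not mark strand. The authors deposited, per the file headers, 1 table of RPKM, a read number divided by transcript length and library size, with 24225 genes on mm10. Tools named by the submitters, in their processing notes, were R 3.1.1, edgeR 3.6.8, HOMER, FastQC 0.11.2 and STAR 2.4.0k, with GRCm38 as a further build name and no roles given. Columns were assigned by heading, and 12 columns under headings shared by 2 columns were not used. RPKM are not counts, so no count model was run, although low values (up to 5 reads, 200 to 1500 nt) were whole multiples of 1 read within 0.1 read in 100% of cases. Low genes rest on few reads, and fold changes on log2(RPKM + 1) understate them.

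Genes that reached 1 RPKM in 2 or more of 8 libraries (K3 and W1, LG and HG, days 8 and 12) were fitted with limma 3.58.1 (R 4.3.3, Python 3.11.15 for tables), with a mean-variance trend, a block per line and day, 1 glucose term per line and 2 residual degrees of freedom. The pairing comes from the labels, since libraries of one line and day share the line and the day. P-values were adjusted by Benjamini-Hochberg at 0.05. The fit was also run on simulated data with independent normal noise at its own spread. Such data meet the model by design, so they cannot check the pairing of days or the noise of low read numbers. The alternatives changed the pseudocount, filter, scaling, block and libraries. Genes named are the 15 largest rises and falls past the threshold (mean of at least 1 RPKM, the same direction on both days), up to 4 members per list with the smallest p and 15 fixed genes; H19, Gm15441, Tnnt2, Nkx2-5 and others outside the rule were chosen after their values were seen. The members, the gene lists and the promoter motifs were chosen with earlier results of these data known. Some genes that the rule named are not reported here.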

Additional observations from a re-analysis of the deposited data

How the results depend on the processing

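With no replicate block the fit gave 0 genes higher and 22 lower, against 65 and 403 with it, and K3 libraries alone gave 0 and 1 (Myl7), with 2710 genes at an unadjusted p below 0.05. Leaving out any one library, where the block could not be kept, gave counts of 0 to 0 for rises and for falls (930 to 1678 at an unadjusted p below 0.05), and 0 to 1 for the difference between K3 and W1. With no filter the counts were 0 and 37 of 19878 genes tested, and median-of-ratios scaling gave 138 rises. Differences between K3 and W1 numbered 24 at a pseudocount of 0.1, 25 at a pseudocount of 5 and 162 with the filter at 5 RPKM. The fold rule gave 159 genes higher and 762 lower at 1.5-fold, 107 and 600 at a pseudocount of 0.1, 5 and 66 at a pseudocount of 5, 201 and 549 on day 8 alone and 243 and 692 on day 12 alone, and 59 higher under quantile scaling. The share of falls on the LG side in K1 was 81.9% at a pseudocount of 5, 83.8% with no filter and 69.6% with the filter at 5 RPKM. Of 80 genes past the threshold that the naming rule or the text picked, 72 stayed past it under median-of-ratios scaling, 69 under quantile scaling, 68 and 59 at pseudocounts of 0.1 and 5, 16 with no filter and 10 with no replicate block, and Afp alone turned sign when a library was left out. Uncalled genes near 0 changed sign under quantile scaling: Prkaa2 to 0.14, Tfeb to 0.10 and Nanog to -0.0064. Over the leave-one-out fits the log2 difference ran from -5.09 to 0.36 for Afp, -0.19 to 0.086 for Prkaa2, -0.50 to 0.35 for Tfeb, -0.30 to 0.65 for Pou5f1, -0.34 to 0.35 for Nanog and -0.061 to 1.44 for Axin2. Causes of these shifts were not tested. Leaving out a library leaves fewer samples, and without the block the change between days counts in the residual spread. Of the same 80 genes, 27 moved by over 1.5 times when a K3 library was left out, and 16 had fewer than 10 reads in at least 1 K3 library, where depth limits the value, among them Txnip, Myl2, Pyy, Cer1, Apom, Apoa1, Afp, Mhrt, Gm15441, Hoxa9, Hoxc9 and the small RNAs.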
